A study of Caenorhabditis elegans with 2 samples.

Results

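The 10 genes described here build the attachments of the Caenorhabditis elegans epidermis, and they were taken by name from 19973 nuclear protein-coding genes. vab-10, mup-4, mua-3 and let-805 encode parts of the hemidesmosomes. dlg-1, ajm-1, hmp-1 and hmr-1 encode parts of the apical junction, let-413 a protein that places junction proteins, and che-14 one needed for apical secretion. A peak was assigned to a gene when its summit, the position of strongest enrichment, lay between 1000 bp upstream of an annotated 5' end of a transcript and the end of the gene. EGRH-3 belongs to the early growth response family of zinc finger proteins, and its binding was mapped by chromatin immunoprecipitation and sequencing (ChIP-seq) with an antibody against GFP. The worms were strain RW12196, in which CRISPR had inserted TY1, EGFP and 3xFLAG tags at egrh-3 (st12196). Intact young adults of 65 h were used, synchronised by starving newly hatched larvae, and the series held 1 group of 2 biological replicates that both carried the tag. Whole worms mix the epidermis with all other tissues, so no site can be placed in a tissue, and an untagged strain was not analysed here.

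In the worm epidermis, hemidesmosomes run through the thin cell from the cuticle to the basement membrane over the body muscles. Apical transmembrane proteins hold the cuticle, a basal transmembrane protein faces the muscle, and a plakin joins both to intermediate filaments, so that muscle force reaches the body surface. Epidermal cells are joined to each other by an apical belt with a cadherin and catenin layer and, just below it, a layer of DLG-1 and AJM-1.

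EGRH-3 was called with high reproducibility at vab-10 and at no other of the 10 genes. The conservative list, which holds 2194 nuclear peaks at a global irreproducible discovery rate (IDR) of at most 0.01, had 1 summit in the windows of the 10 genes, against 8.12% of all genes with a summit in their window. The global IDR estimates what fraction of the peaks ranked at least as high would fail to recur in a replicate. None of the 10 genes had a conservative summit in a promoter (1000 bp upstream to 200 bp downstream of a 5' end), where 4.86% of all genes had one. The 10 windows were long, with a median of 17130 bp against 3027 bp over all genes. Among the 223 genes with windows of at least 20 kb, 32.3% had a conservative summit, and of the 5 such genes here vab-10 alone did. That length limit was chosen after seeing the data. Per 10 kb of window, the 10 genes held 0.0423 conservative summits, all genes 0.243 and the long genes 0.216.

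Less strict lists added 2 genes at the level of thresholded peaks. The larger list of 3254 peaks held 4 summits at vab-10, 1 at ajm-1 and 1 at hmr-1, and 11.5% of all genes had a summit in it. Replicate 1's own list of 2850 peaks held 5 summits at vab-10 and 2 at hmr-1, with 9.82% of all genes reached. Replicate 2's own list of 1439 peaks held 3 summits at vab-10 and 1 at ajm-1, with 5.7% of all genes reached. The vab-10 summits at 11771122 and 11771322 lay in overlapping intervals of that list, with signals of 107 and 19.1. In that list 1 of the 10 genes had a promoter summit, at an internal 5' end of vab-10, against 3.6% of all genes. In the ranked list, 26716 regions of any reproducibility, 8 of the 10 genes held 97 regions, where 46.1% of all genes held at least 1. Here the pooled density was higher at the 10 genes, at 4.10 regions per 10 kb. All genes held 2.95 and the long genes 3.32. Of the 97 regions, 48 were at vab-10 and 19 at let-805. The median over single genes was 2.13 per 10 kb at the 10 genes, 3.19 at the long genes and 0 over all genes. Promoters of 5 genes held a ranked region, against 32.8% of all genes. At a global IDR under 0.05, 8 regions at vab-10, hmr-1 and ajm-1 remained, and 13.2% of all genes had such a region.

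vab-10 (WBGene00006876) encodes a spectraplakin, a large cytoskeletal linker made in isoforms that bind intermediate filaments or actin and microtubules. It lies on the minus strand of chromosome I from 11747424 to 11804991 on ce11, the assembly also named WBcel235, with 14 annotated transcripts and 8 distinct 5' ends. Its conservative peak spanned 11770927 to 11771352 with the summit at 11771148. The signal, the authors' measure of peak strength against control, was 481, against a median of 140 over the conservative list, and 8.25% of that list was stronger. The signal in replicate 1's own ranked list was 372 and in replicate 2's it was 107. Both replicates also called the site in their own thresholded lists, at rank 164 of 2850 and rank 314 of 1439, with summits at 11771140 and 11771122. Of all conservative peaks, 51.9% overlapped both replicates' lists. The replicate ratio of 3.47 compares with a median of 1.64 over the 2070 conservative peaks measured in both.

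The vab-10 summit lay inside a coding exon, far from any annotated promoter. The exon, 342 bp from 11770992 to 11771333, belongs to 5 of the 14 transcripts, and in each it is the exon before the last. The summit fell 185 bp from the exon's 5' edge, 58.8% of the way along the gene and 8947 bp upstream of the nearest 5' end. GC content was 65.35% within 50 bp of the summit and 63.2% over the exon. The conservative list had a median of 57.4% and an upper quartile of 62.4%, so the site was GC-rich within it.

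The other thresholded vab-10 sites were weaker, and the replicates differed in which was higher. A coding exon site at 11759800 had a signal of 70.02 in the larger list, 53.0 in replicate 1 and 22.4 in replicate 2. A pair of intron sites lay close together near the gene's 5' side. The one at 11790988 had a signal of 97.2, with 69.7 in replicate 1, 28.1 in replicate 2 and an IDR of 0.0136. The neighbour at 11789941 had 101, with 86.9 in replicate 1, 15.3 in replicate 2 and an IDR of 0.450. The second ranked list of the series gave the opposite order, with IDRs of 0.00282 at 11790988 and 0.00087 at 11789941. The larger list gave both sites the score they had in the second ranked list, 1000. In the ranked list used here their scores were 775 and 144. GC contents were 62.4% and 63.4%. Replicate 1 alone called overlapping coding exon peaks with summits at 11765070, with a signal of 40.3, and 11765274, with 7.59. No region of replicate 2 covered these summits. A replicate 2 region from 11765318 to 11765693 overlapped the second peak, with a signal of 30.9 and an IDR of 0.649. In the other direction, replicate 2's list called 11783798, 141 bp downstream of an internal 5' end, with a signal of 43.8 against 21.7 in replicate 1. Further ranked regions under an IDR of 0.05 lay at 11763366 in an intron, with signals of 34.0 and 40.7 in replicates 1 and 2, at 11773945 in the noncoding gene ZK1151.4, and at 11803308 over a serine tRNA gene.

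**Figure D1:**
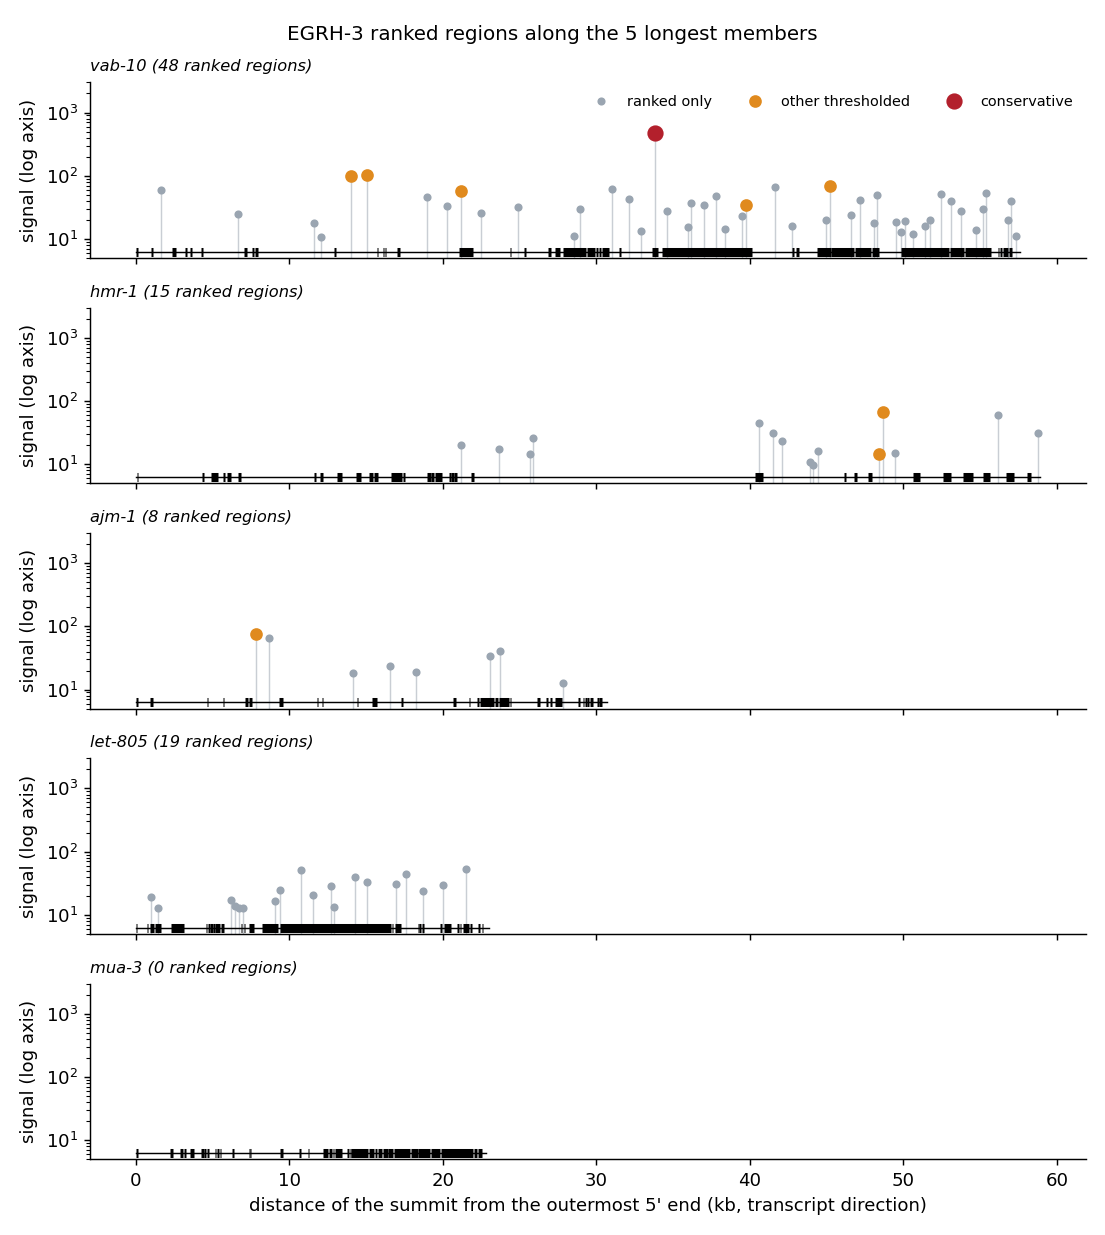
Ranked regions along the 5 longest genes, drawn by distance of the summit from the outermost 5' end (kb, x axis) and signal (log y axis), with coding segments as black blocks on the gene line. Larger coloured points mark regions that also lie in a thresholded list, the single conservative peak stands at 481 in vab-10, and mua-3 has no region.

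The apical hemidesmosome genes held weak regions or none. mup-4 (WBGene00003497, chromosome III, 7479680 to 7489105, minus strand) encodes a transmembrane protein that holds the cuticle. Its 1 ranked region, at 7483835, had a signal of 17.2 and an IDR of 0.711, with 15.4 in replicate 2 and no covering region in replicate 1. The second ranked list held 5 regions at mup-4, with signals of up to 19.6. Among them was a region 125 bp upstream of the 5' end, with a signal of 18.9 and an IDR of 0.734. mua-3 (WBGene00003482, chromosome III, 10160697 to 10183529, plus strand) encodes a related apical transmembrane protein. It held no region of the ranked list, as did 6.73% of the 223 genes with windows of at least 20 kb. The second ranked list held 2 regions at mua-3, with signals of 27.5 at 10179338 and 22.0 at 10182295, each with an IDR of 0.734. In the lists of the separate replicates its strongest regions were 22.4 in replicate 1, at 10167939, and 21.0 in replicate 2, at 10182270, so the replicates placed them at different sites.

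let-805 (WBGene00002915, chromosome III, 2658083 to 2681112, plus strand) encodes myotactin, the transmembrane protein of the basal epidermal face toward muscle. It held 19 ranked regions, 7.91 per 10 kb, close to the 8.20 of vab-10, and 13 of the 19 lay in coding exons. None was in a thresholded list. The strongest, at 2679580 in a coding exon, had a signal of 53.3, with 46.1 in replicate 1 and 12.8 in replicate 2, and an IDR of 0.488. The next, at 2668865, had a signal of 50.8, with 22.5 in replicate 1 and 29.1 in replicate 2, and an IDR of 0.0785. In the second ranked list the IDRs were 0.0609 and 0.103, in the opposite order. By signal, the weaker of the pair was the more even between replicates. The strongest region is shown from chrIII:2679530-2679630 on the plus strand of WBcel235 (RefSeq) as an example of coding sequence in a GC-rich ranked region. GC content was 60.4%, and capitals mark a run of bases shared with ajm-1.
let-805: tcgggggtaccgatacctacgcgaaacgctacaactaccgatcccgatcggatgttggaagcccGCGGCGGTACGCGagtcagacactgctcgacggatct

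ajm-1 (WBGene00000100, chromosome X, 9082946 to 9113619, plus strand, 14 distinct 5' ends) encodes a coiled-coil protein of the lower junction layer. Its thresholded site lay in an intron that also contains 5 glutamine tRNA genes, 72 bp each. In the larger list the peak spanned 9090584 to 9090983 with its summit at 9090784, 437 bp downstream of an internal 5' end, and a signal of 75.3. Replicate 1 gave 22.7 there and replicate 2 gave 65.1, the reverse order of vab-10, and replicate 2 alone called it in its own list. The interval covered 2 of the tRNA genes, H08J11.t5 at 9090627 to 9090698 and H08J11.t1 at 9090830 to 9090901. A ranked region farther along the intron, at 9091625, had a signal of 65.5, with 33.9 in replicate 1 and 35.9 in replicate 2, and an IDR of 0.0183, against 0.507 in the second ranked list. This summit lay inside H08J11.t3, 660 bp upstream of another internal 5' end. The sequences of H08J11.t5 and H08J11.t3 each occur 16 times in the genome and that of H08J11.t1 5 times, so reads within them could belong to other copies, and how the authors treated such reads is not given in the sources used here. Intervals over tRNA genes made up 3.09% of the 97 regions at the 10 genes and 1.63% of all ranked regions. Both windows are shown from the plus strand, chrX:9090734-9090834 with the run shared with let-805 in capitals and its last bases inside H08J11.t1, and chrX:9091575-9091675 with 54 bases of the tRNA gene in capitals.
ajm-1 at the larger-list summit: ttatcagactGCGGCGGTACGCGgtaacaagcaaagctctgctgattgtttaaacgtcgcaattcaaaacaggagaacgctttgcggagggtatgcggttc
ajm-1 at a tRNA gene: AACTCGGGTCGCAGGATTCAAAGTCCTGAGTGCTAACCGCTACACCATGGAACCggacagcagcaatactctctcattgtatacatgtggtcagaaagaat

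dlg-1 (WBGene00001006, chromosome X, 5479700 to 5484941, plus strand) encodes the Discs large scaffold that binds AJM-1. It held 4 ranked regions and no thresholded one, the strongest at 5480346 with a signal of 24.2, an IDR of 0.531, and 26.6 in replicate 2 with none in replicate 1. A conservative peak lay outside the window, at 5475236 to 5475635 with its summit 4264 bp upstream of the dlg-1 5' end, and dlg-1 has the nearest protein-coding 5' end. That peak had a signal of 80.8, ranked 2030 of 2194, and had 54.4 in replicate 1 and 34.7 in replicate 2. Replicate 1 called it in its own list and replicate 2 did not. Annotated noncoding RNA genes also start close to it. Its centre is printed from chrX:5475386-5475486 on the plus strand because it is the conservative site nearest to any junction gene without one, with a GC content of 51.5%.
dlg-1 upstream: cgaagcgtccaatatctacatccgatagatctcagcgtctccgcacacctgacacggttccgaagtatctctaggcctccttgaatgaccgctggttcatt

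hmp-1 and let-413 each held 1 ranked region, in the promoter. hmp-1 (WBGene00001978, chromosome V, 11845871 to 11852166, plus strand) encodes alpha-catenin, which ties the cadherin complex to actin. Its region, 829 bp upstream of the 5' end at 11845042, had a signal of 54.2, with 29.9 in replicate 1 and 22.4 in replicate 2, and an IDR of 0.0729, against 0.547 in the second ranked list. let-413 (WBGene00002632, chromosome V, 7973078 to 7977776, minus strand) encodes a protein of the Scribble and Erbin family that places junction proteins. Its region, 123 bp upstream of the 5' end at 7977899, had a signal of 39.0, with 13.5 in replicate 1 and 28.6 in replicate 2, and an IDR of 0.386. Both regions were found in both replicates but passed no threshold, and each summit also lay in a noncoding gene, R13H4.11 at hmp-1 and F26D11.15 at let-413. The promoter windows are printed from the plus strand, chrV:11844992-11845092 with a GC content of 54.5% and chrV:7977849-7977949 with 43.6%.
hmp-1: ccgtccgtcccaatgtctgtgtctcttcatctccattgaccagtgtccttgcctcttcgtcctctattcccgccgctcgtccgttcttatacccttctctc
let-413: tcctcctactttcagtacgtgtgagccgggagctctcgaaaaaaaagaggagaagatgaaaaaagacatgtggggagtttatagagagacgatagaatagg

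The exon and intron positions of the ranked regions differed from gene to gene. Of the 97 regions, 50 lay in coding exons, 42 in introns, 3 in 3' UTRs and 2 outside the genes, and 11 were in promoters as well. Coding exons held 51.5% of the regions and 33.9% of the bases, while over all gene windows 31.6% of regions were coding. The share of coding bases over all gene windows was not computed, and 31 of the 50 coding regions were at vab-10. At vab-10 coding exons held 64.6% of regions and 40.0% of bases, and at let-805 68.4% and 56.2%. At ajm-1 they held 25% of regions and 18.3% of bases, and at hmr-1 6.7% and 15.1%, the reverse order. Of the 97 regions, 45 had an IDR of at least 0.5.

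hmr-1 (WBGene00001980, chromosome I, 11075755 to 11134667, minus strand) encodes the classical cadherin. Its larger-list peak at 11095948, in an intron, had a signal of 84.2 and a GC content of 58.4%. This peak was absent from the ranked list used here, where the strongest hmr-1 region had 67.7. It is therefore not among the 97 regions or in the figures. It rested on replicate 1, where the signal was 64.6, and no region of replicate 2 covered the summit. A site in another intron was shared: its ranked summit at 11086000 had a signal of 67.7 and an IDR of 0.0119, just outside the threshold. Replicate 1 called it at 11086061 with a signal of 43.1, and replicate 2 had 33.4 there. hmr-1 held 15 ranked regions, 2.50 per 10 kb. che-14 (WBGene00000493, chromosome I, 5746633 to 5754306, plus strand) encodes a relative of Dispatched needed for apical secretion by epithelial cells. It had no summit in any of the 4 ranked lists, as did 35.7% of all genes, and its window had the lowest GC content of the 10, 33.8%.

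The replicates covered the 97 regions about as often as the whole ranked list. Their signals had a lower rank correlation, without matching for signal. Both replicates' ranked lists covered the summit in 37 of the 97 (38.1%), against 42.9% of all ranked regions. A further 24 were covered in replicate 1 alone, 18 in replicate 2 alone and 18 in neither. Where both had a value, replicate 1 was higher in 18 and replicate 2 in 19, with a median ratio of replicate 1 to replicate 2 of 0.946, against 1.15 over 11452 regions. Spearman's rho between the signals was 0.205 over the 37 and 0.573 over the 11452, given as a description, since all regions share the same pair of libraries. Without vab-10, rho was 0.282 over 16 regions.

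**Figure D2:**
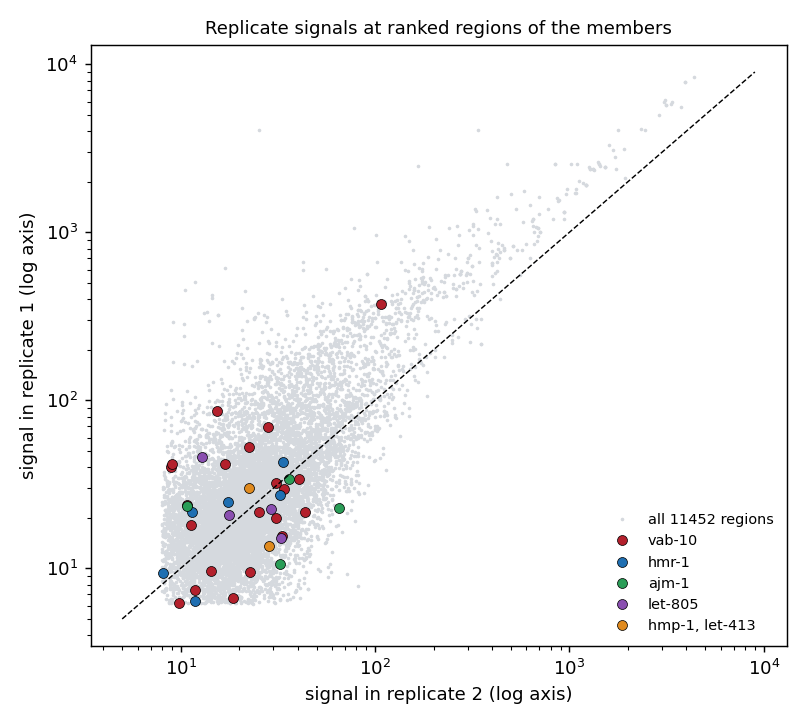
Signal in replicate 1 (log y axis) against replicate 2 (log x axis) at the 37 regions with a value in both, coloured by gene, over all 11452 such ranked regions in grey, with the line of equal signal dashed. The vab-10 exon peak stands apart at 372 and 107, and the rest lie below 100 in both replicates.

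The replicate ratio moved with GC content. Of 8 regions with at least 58% GC and both values, replicate 1 was higher in 7, and of 7 regions under 45% GC, replicate 2 was higher in 6. The same counts were not made over the whole ranked list. Spearman's rho of GC content with the log2 ratio was 0.453 over the 37 regions, 0.342 over the 16 outside vab-10, and 0.397 over the whole ranked list. In the thresholded lists, the summits at these genes had a median GC of 59.4% in replicate 1 (7 summits) and 51.5% in replicate 2 (4 summits), against 59.4% and 55.5% over the whole lists. Base composition also moved with the number of ranked regions. The GC content of the window and the regions per 10 kb had a rho of 0.657 over the 10 genes. This rho was 0.378 over all 19973 genes and 0.358 over the 223 with windows of at least 20 kb. The part of GC content in which sites were called, and in which replicate, was not tested.

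**Figure D3:**
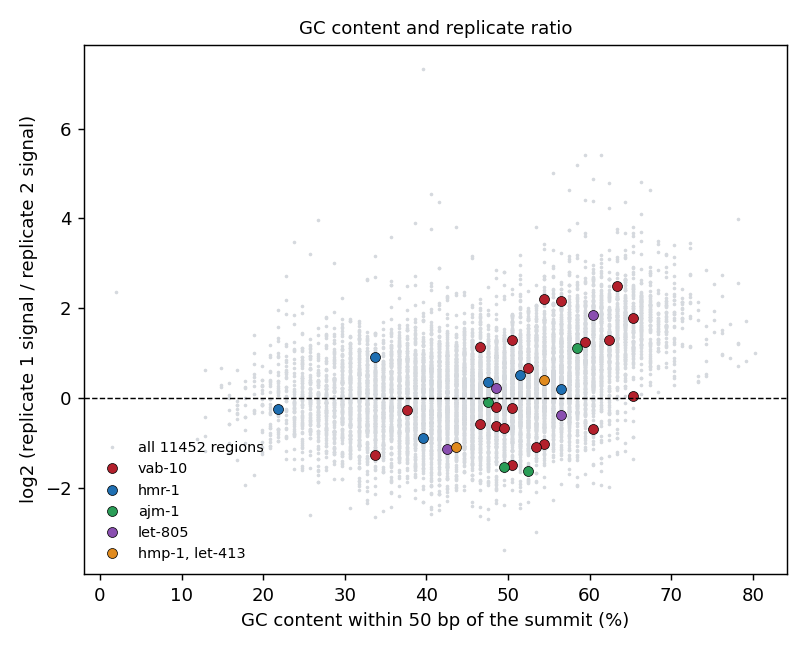
log2 ratio of replicate 1 to replicate 2 signal (y axis) against GC content within 50 bp of the summit (x axis, %) for the 37 regions with both values, coloured by gene, over all 11452 ranked regions in grey. Points with at least 58% GC lie mostly above the dashed line of equal signal and points under 45% mostly below it.

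Sequences of the type bound by EGR proteins, GTGGGCG and GTGGGTG, were found in few of the windows, as was the GC-rich sequence GGGCGG. Of the 97 windows of 101 bp, searched on both strands, 0 held GTGGGCG, against 1.91% of conservative and 1.27% of ranked windows. GTGGGTG was in 4 (4.12%), 3 at vab-10 and 1 at the hmr-1 site at 11086000, against 1.41% of conservative and 0.96% of ranked windows. GGGCGG was in 3 (3.09%), 2 at vab-10 and 1 at let-805, against 9.57% and 4.35%. None of the 3 motifs was in the window of the vab-10 conservative summit.

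Several partner genes of the same structures did hold conservative summits. Of 71 genes in 6 lists, 12 (16.9%) had a conservative summit in their window, against 8.12% of all genes. In a promoter, 7 of the 71 had one, against 4.86% of all genes. Among hemidesmosome and cytoskeletal partners 3 of 15 had a summit: spc-1, alpha spectrin, with a signal of 186 in its promoter, unc-70, beta spectrin, with 118 in an intron, and unc-44, ankyrin, with 108 in a coding exon. Among cadherin and catenin partners 2 of 12 did: sax-7, an L1 family adhesion protein, with 4 summits of up to 259, and afd-1, afadin, with 3 of up to 211. The sax-7 summits at 8073781 and 8073980 lay in overlapping intervals, and the latter had a signal of 23.3 with no covering region in replicate 1. Polarity genes had the most, 5 of 13, and 4 of these in promoters. The strongest was eat-20, a Crumbs-like transmembrane protein, with a signal of 726, 615 bp upstream of an internal 5' end and with a GC content of 69.3%. The others were par-3 with 206, in a coding exon, lin-10 with 142, pkc-3 with 95.2 and lgl-1 with 88.2. Of 13 basement membrane genes 2 had a summit, let-2, a type IV collagen, with 160 and mig-6, papilin, with 105, both in coding exons. None of 6 claudin-like and none of 12 apical matrix genes had one. The lists were chosen with results of these data known, and their window lengths were not matched to those of all genes.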

How the data were processed

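The authors deposited 4 peak lists for the series and 2 for each of the 2 biological replicates, all on ce11 per the file headers. Chromatin was fragmented to 200 to 800 bp, per the labels. The sources used here do not give the aligner, the peak caller or the depth, so no counting interval is printed. The deposited signal is peak strength against control with no stated scaling, and signals were ranked only within a list. The deposited score is a whole number that follows the IDR, with a minimum of 830 in the conservative list. Ranked lists also give the global IDR, deposited as its −log10. The conservative list was the main set. Of the 2 series ranked lists, the one used had paired intervals matching the replicates' ranked lists in 72.8% and 70.6% of rows, and IDRs are from it unless the second ranked list is named.

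Summits were placed on the Ensembl 115 annotation of WBcel235, and GC content was counted over 101 bp. Replicate signal was that of the strongest region in the replicate's own ranked list that covered the summit. Sequences came from the RefSeq WBcel235 genome. Everything was computed in Python 3.11.15 (pandas 2.3.3, numpy 2.4.6, scipy 1.17.1) and checked on planted summits. With 1 group no test was made. Named genes were all 10 members and the list genes with a conservative summit. The members and lists were chosen with earlier results of these data known. Alternatives were other lists, IDR limits, windows and matching rules.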

Additional observations from a re-analysis of the deposited data

How the results depend on the processing

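The larger list gave 3 genes with a summit, 6 summits, 0.254 summits per 10 kb and a median summit GC of 60.9%. The ranked list gave 8 genes, 97 summits, 5 genes with a promoter summit, 4.10 summits per 10 kb and a median GC of 48.5%. Each replicate's own list, which leaves out the other replicate, gave 2 genes, 4 to 7 summits, 0 to 1 genes with a promoter summit, 0.169 to 0.296 summits per 10 kb and a median GC of 51.5% to 59.4%. Regions at an IDR under 0.05, a limit chosen after seeing the data, gave 3 genes and 8 summits. GC content over the whole vab-10 interval was 58.5%. The cause of these differences was not tested. An IDR under 0.001 and peaks above the median signal each gave 1 gene with a summit. Neither limit could remove it, since the vab-10 peak had an IDR of 2e-05 and a signal of 481. Other upstream lengths, gene bodies, peak midpoints, any overlap and the nearest gene only also gave 1 gene each. The vab-10 summit lay inside the gene, so shorter upstream lengths and gene bodies could not remove it either. The windows of at least 20 kb, also chosen after seeing the data, gave 1 gene too. Other promoter windows gave 0 genes with a promoter summit, and other rules for matching replicates left 1 summit in both replicates and a signal ratio of 3.47. Depth is unknown, so a gene without a summit is one where none was called in these lists. No paired analysis was possible because there was 1 group.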

Other observations

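The 101 bp windows of the ajm-1 site at 9090784 and the let-805 site at 2679580 share a run of 13 bases, gcggcggtacgcg, seen when the 15 pairs of printed windows were compared. It occurs 2 times in the genome, in these same windows. They are the 2 of 26716 ranked windows that hold it, and 0 conservative windows do. The run was picked from these windows, so the counts add no separate support. The sites are unlike otherwise: the ajm-1 window is intronic and stronger in replicate 2, and the let-805 window is coding and stronger in replicate 1.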
